A study of Mus musculus with 2 samples.

Results

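The regions described here are the wide peaks of USP21 on 14 mouse autosomes. They were taken from a list of peaks called by chromatin immunoprecipitation sequencing (ChIP-Seq) of Flag-tagged USP21 in mouse embryonic stem cells (mESCs). The members were chosen by their width: every listed peak of at least 180 bp on chromosomes 2, 3, 4, 5, 7, 9, 10, 12, 13, 15, 16, 17, 18 and 19. There were 316 such peaks among 2186 on these chromosomes and 4117 in the whole list. They were compared with the 1528 peaks of at least 100 but under 180 bp on the same chromosomes, called narrow peaks below. The remaining 342 peaks there were under 100 bp.

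Within a wider study of how USP21 regulates Nanog in mESCs, ChIP-Seq was used to ask where USP21 sits on chromatin. Both libraries came from E14 cells, an established mESC line, grown without feeder cells in medium with leukaemia inhibitory factor, which keeps mESCs undifferentiated. The Flag-USP21 library (1 library) was made with an anti-Flag antibody, and the Input library (1 library) was made with no antibody. According to the methods, Flag-USP21 was placed at the Rosa26 locus with CRISPR/Cas9, so the antibody read an added, tagged protein and not the cell's own USP21. The labels do not say how many clones were used. Values of the Input library were not analysed here. With 1 library there were no replicates, so intervals and tests below cover counting error across the peaks of that library only. Widths, scores and tag numbers come from the same peak call, and are therefore described with no test.

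USP21 is a deubiquitinase, an enzyme that removes ubiquitin from other proteins. Among its substrates are histone H2A, whose monoubiquitination on chromatin goes with gene repression, and Nanog, a homeobox factor that keeps mESCs pluripotent. Deubiquitinases are not sequence-specific DNA-binding factors, and in ChIP-Seq they are seen where they are held by chromatin or by proteins bound to it. A peak is an interval in which more sequenced fragments (tags) start than the background predicts. The width of a peak depends on the length of the fragments and on the length of DNA over which the protein is found. It also depends on the number of tags and on where the caller ends the interval, so a wide peak need not be a longer stretch of bound protein. Per the labels, fragments of 100 to 300 bp were cut from the gel for the library. Positions below are those of the deposited list, counted from 1. The submitters' processing notes name the mm9 build, and 20 of the listed peaks, 3 of them wide peaks, ended beyond the GRCm38 end of their chromosome. A genome of the list's build was not used here, so sequences and genes at these positions were not analysed.

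The wide peaks were mostly only a little longer than the limit. Their median width was 205.5 bp (95% confidence interval 201 to 213 bp), with quartiles of 189 and 238.5 bp and a longest peak of 1251 bp. Of the 316 peaks, 132 were under 200 bp wide, 118 were from 200 to under 250 bp, 54 from 250 to under 500 bp and 12 were 500 bp or more. Together they covered 77.2 kb, against 215 kb for the narrow peaks. Wide peaks made up 14.5% of all peaks on these autosomes. On chromosomes 1, 6, 8, 11 and 14 the same width was reached by 264 of 1753 peaks, or 15.1% (exact 95% interval 13.4 to 16.8%), an interval that includes the former share.

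There was no step in the values at 180 bp. The 9 peaks of exactly 180 bp had scores of 45.01 to 82.33 (median 56.17), and the 7 peaks that were 1 bp shorter had scores of 46.58 to 241.66 (median 63.86). In the 42 wide peaks nearest to the limit (the first 5 bp) the median score was 63.39, and in the 50 narrow peaks of the last 5 bp before it the median was 63.98. The limit therefore divides a continuous range of widths.

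The score is the value that the authors' peak caller gave to each peak. The list has the layout of MACS14, where this value is a p-value on a negative log10 scale multiplied by 10. The lowest score of 40 thus stands for a caller's p-value of 0.0001. Wide peaks had a median score of 70.92 (95% confidence interval 67.96 to 79.87), and narrow peaks one of 50.15 (49.65 to 51.02). The quartiles were 53.6 and 125 for the wide peaks and 44.9 and 64.8 for the narrow peaks. A score of at least 100 was reached by 102 wide peaks (32.3%, exact 95% interval 27.2 to 37.7%) and by 142 narrow peaks (9.29%, 7.88 to 10.9%). At the other end, 63 wide peaks scored below 50 (19.9%, 15.7 to 24.8%), compared with 751 narrow peaks (49.1%, 46.6 to 51.7%). Both groups spanned nearly the same range, 40.09 to 1214.29 and 40.08 to 1010.02, so they overlapped widely.

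Seen from the score, wide peaks were a small part of the weak peaks and a large part of the strong ones. Of the 828 peaks scored 40 to 50 on the 14 autosomes, 63 were wide (7.61%, exact 95% interval 5.90 to 9.63%). The share was 15.3% (13.1 to 17.8%) of 984 peaks scored 50 to 100 and 21.2% (16.5 to 26.6%) of 269 peaks scored 100 to 200. Of the 105 peaks scored 200 or more, 45 were wide (42.9%, 33.2 to 52.9%), 29 were narrow and 31 were under 100 bp.

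**Figure D1:**
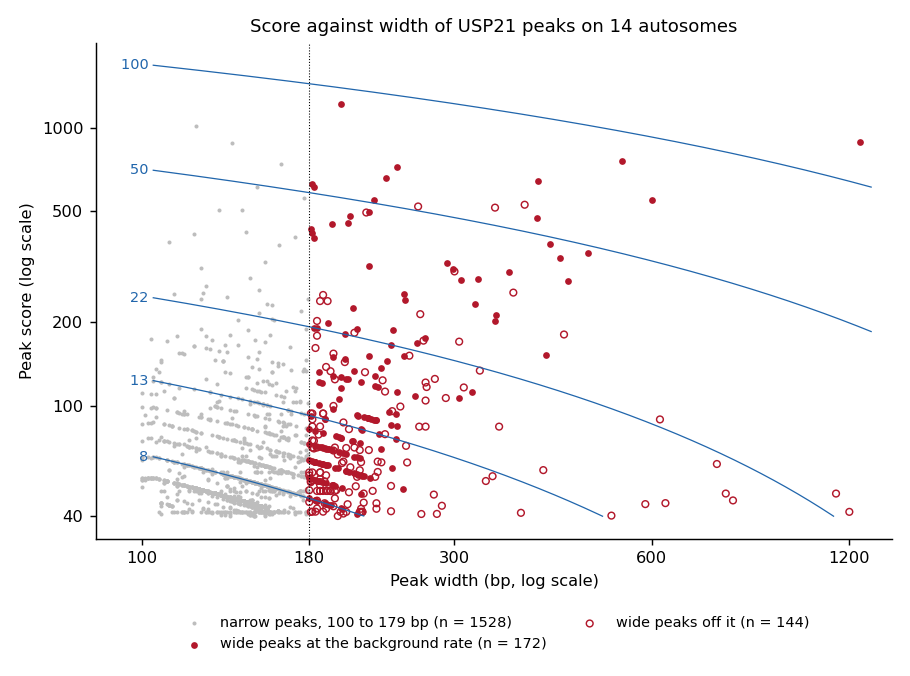
Score (vertical, log scale) against width in bp (horizontal, log scale) of narrow peaks (grey) and wide peaks (red) on 14 autosomes. Filled red points are the 172 wide peaks whose score fits a Poisson tail at the background rate, open ones the other 144. Each blue line is the score of a tail beyond the number of tags written at its left end, and the dotted line marks 180 bp. Most of the longest peaks lie near the lowest score, far below 3 filled points of 500 bp or more.

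The median score did not go on increasing with width among the wide peaks. It was 62.48 (95% confidence interval 57.52 to 70.07) under 200 bp, 76.28 (66.84 to 88.49) from 200 to under 250 bp and 159.88 (116.26 to 213.34) from 250 to under 500 bp. The share with a score of at least 100 was 18.9%, 28.8% and 74.1% in these classes (25, 34 and 40 peaks). In the 12 peaks of 500 bp or more, however, the median was 48.29 and the interval ran from 44.24 to 551.08. Of these 12 peaks, 3 scored at least 100 and 7 scored below 50. The longest peaks thus fell into a few with very high scores and a larger number close to the lowest score.

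The 3 strong peaks of this length lay on different chromosomes. The longest of all, 1251 bp on chromosome 17 (79486950 to 79488200), had a score of 888.36. On chromosome 4, a 540-bp peak (129912108 to 129912647) had a score of 757.27, and on chromosome 9 a 601-bp peak (123262815 to 123263415) had one of 551.08. No other peak of 500 bp or more scored above 89.21. That value came from a 618-bp peak of chromosome 4 (144997282 to 144997899).

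The weak long peaks were partly found close to each other. Chromosome 4 carried the 618-bp peak, a 630-bp peak (145151677 to 145152306, score 44.6) and a 755-bp peak (146023341 to 146024095, score 61.67) within little more than 1 Mb. Chromosome 2 carried peaks of 779 bp (98502382 to 98503160) and 1203 bp (98506386 to 98507588), with scores of 48.29 and 41.49 and with 3225 bp between their facing edges. On chromosome 12 there were peaks of 799 bp (116839891 to 116840689) and 1148 bp (116850960 to 116852107), with scores of 45.61 and 48.28. The remaining members of the 10 longest peaks were the strong ones on chromosomes 17 and 9 and a 587-bp peak of chromosome 5 (37051893 to 37052479) that scored 44.24. These 10 peaks came from 6 chromosomes and had a median score of 48.29.

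To place such stretches among the rest, wide peaks were counted in fixed bins of 5 Mb. Of the 355 bins with any peak, 208 held a wide peak, most of them 1 or 2. Just 15 bins held 3 and 7 bins held 4 or more, and the latter together had 34 of the 316 wide peaks. The bin with the most was 115 to 120 Mb on chromosome 12, where 8 of 24 peaks were wide. Their median score was 50.93, 0 of them reached 100, and they included both long peaks of this chromosome. Between 145 and 150 Mb on chromosome 4, 4 of 13 peaks were wide with a median score of 49.47, and again 0 reached 100. Between 25 and 30 Mb on chromosome 9, 4 of 8 were wide with a median score of 65.87, and 0 reached 100. Some of the other crowded bins held strong wide peaks. Between 90 and 95 Mb on chromosome 4, 5 of 7 peaks were wide, with a median score of 90.29, and 2 of them scored at least 100. Between 60 and 65 Mb on chromosome 15, 4 of 9 were wide and their median score was 154.46. Crowding of wide peaks thus went with low scores in some stretches and not in others.

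The list gives no tag counts, but part of them can be read from the scores. A score is set by a number of tags and by the mean number that the background predicts in the peak. A single background rate was first fitted on weaker peaks with widths in the narrow range, and then adjusted slightly on the whole list. This rate of 8.13 tags per kb reproduced 2212 of the 4117 scores to within 0.015 (53.7%). Shares of wide and narrow peaks on it thus set the wide peaks against widths used for the first fit. At this rate a peak of 180 bp is predicted to hold 1.46 tags. Among the wide peaks, 172 had a score on this background (54.4%, exact 95% interval 48.8 to 60.02%), against 1097 narrow peaks (71.8%, 69.5 to 74.0%). At 19 other rates, from 0.8 to 1.2 times the fitted one, at most 2 wide peaks did (0.633%). Whether the tail beyond 8 tags was given to peaks holding 8 or 9 tags is not said in the list, and the numbers below are those of the tail.

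On this reading the typical wide peak rested on more tags than the typical narrow peak. The median was a tail beyond 13 tags (95% confidence interval 12 to 14, quartiles 10 and 22) for the 172 wide peaks and beyond 7 tags (7 to 8, quartiles 7 and 9) for the 1097 narrow peaks. A tail beyond at least 20 tags was found for 47 wide peaks (27.3%, exact 95% interval 20.8 to 34.6%) and 23 narrow peaks (2.10%, 1.33 to 3.13%). The most frequent tails of the wide peaks were those beyond 10 tags (26 peaks), 11 tags (17 peaks) and 9 tags (16 peaks). Among the narrow peaks the tail beyond 7 tags alone held 540 peaks.

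The lowest score of the list bears on these numbers. At the fitted rate, a tail beyond 7 tags reaches a score of 40 only in peaks of up to 170 bp, and at 180 bp it gives 38.4. A wide peak on this background therefore needed a tail beyond at least 8 tags to enter the list, and 11 wide peaks had just that. The limit rises to a tail beyond 9 tags above 218 bp and beyond 10 tags above 270 bp. Relative to the tags predicted for their width, the groups were closer. The median ratio of tags to background was 7.54 (95% confidence interval 7.16 to 8.02) in wide and 6.78 (6.68 to 6.89) in narrow peaks. Per 100 bp of peak, the medians were 6.13 tags (5.82 to 6.52) and 5.51 tags (5.43 to 5.60). At a single rate this is the same ratio in other units and not a second measure.

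**Figure D2:**
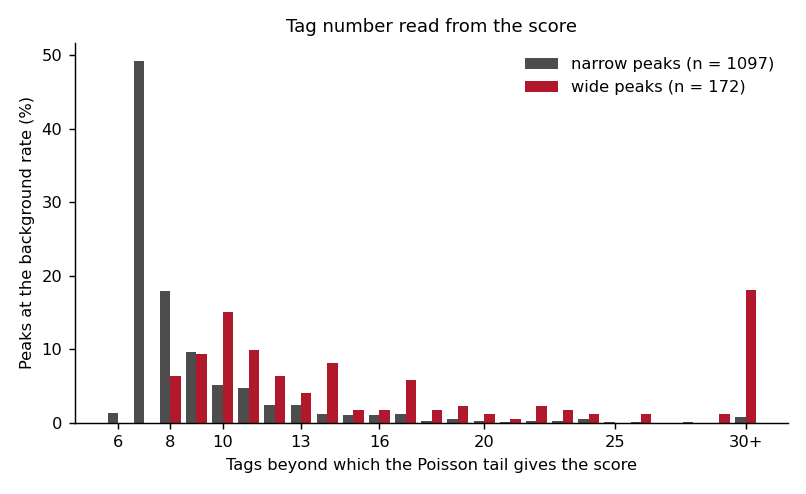
Share of peaks (vertical, percent of the peaks at the background rate in each group) by the number of tags beyond which a Poisson tail gives their score (horizontal, values of 30 or more in the last bar). Narrow peaks (grey, n = 1097) have their highest bar at 7 tags and wide peaks (red, n = 172) at 30 or more, followed by 10.

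All 10 wide peaks with the highest scores lay on this background, so that tag numbers could be read for each. First was a 201-bp peak of chromosome 13 (92813827 to 92814027), with a score of 1214.29 and a tail beyond 90 tags. This was 55.1 times the background, the highest ratio of any wide peak. The peak of 1251 bp on chromosome 17 held more tags, with a tail beyond 125, but at 12.3 times the background. Next came the peak of 540 bp on chromosome 4 with a tail beyond 84 tags (19.1 times). Tails beyond 64 and 59 tags were found for a 245-bp peak of chromosome 7 (85058574 to 85058818, score 723.2) and a 236-bp peak of chromosome 2 (149350263 to 149350498, score 657.63). The order by score and the order by tags thus differed, since the same number of tags scores higher in a shorter peak.

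The other high-scoring peaks were of both kinds, short with dense tags and long with sparser ones. A 402-bp peak of chromosome 4 (70179470 to 70179871, score 641.48) had a tail beyond 68 tags, 20.8 times the background. The 2 shortest were a 182-bp peak of chromosome 13 (104432890 to 104433071, score 628.08) and a 183-bp peak of chromosome 12 (49931749 to 49931931, score 611.23). They had tails beyond 53 and 52 tags, or 35.8 and 35.0 times the background. The peak of 601 bp on chromosome 9 had a tail beyond 70 tags at 14.3 times the background. A second peak on chromosome 7 (137427849 to 137428074, 226 bp, score 549.54) had a tail beyond 51 tags. The 10 peaks had a median width of 240.5 bp and came from 7 chromosomes, and 2 of them were also among the 10 longest.

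The 144 wide peaks off the background rate had a lower median score, 59.33 (95% confidence interval 54.43 to 70.13), than the 172 on it (84.95, 74.60 to 92.43). Weak wide peaks were the ones most often off it. Among the 12 peaks of 500 bp or more, only the 3 strong ones were on it. No tag number was thus read at this rate for the weak long peaks described above. Of the 63 wide peaks scored below 50, 12 were on the background rate (19.05%, exact 95% interval 10.2 to 30.9%), compared with 495 of 751 narrow peaks in the same score range (65.9%, 62.4 to 69.3%). For scores of 50 to 100 the shares were 60.3% (52.0 to 68.1%) and 78.7% (75.3 to 81.9%), and for scores of 100 to 200 they were 61.4% (47.6 to 74.0%) and 71.7% (62.4 to 79.8%). At scores of 200 or more the shares were 75.6% (34 of 45 wide peaks, 60.5 to 87.1%) and 72.4% (21 of 29 narrow peaks, 52.8 to 87.3%). The gap between wide and narrow peaks was thus widest at the lowest scores and was not detectable among the strongest. With so few strong peaks and such wide intervals, a moderate gap there could have been missed. Weaker peaks of narrow width were also those on which the rate was first fitted.

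A part of the wide peaks off the background rate had scores of a fixed mean that did not depend on width. The fixed mean that fitted the most such peaks of the whole list was 1.69 tags (314 of 1905). Among the wide peaks, 26 matched this mean, and 16 matched 2 times this value, 3.39 tags, again to within 0.015 of the score. A further 4 matched 3 times and 2 matched 4 times this mean, 48 of 144 in all (33.3%, exact 95% interval 25.7 to 41.7%). At 19 other means tried in the same way, at most 8 wide peaks matched (5.56%). In narrow peaks off the background rate the share was similar (151 of 431, 35.0%, 30.5 to 39.7%), but it was made up differently. Of these narrow peaks 137 matched the single mean and 10 its double. This make-up went with width, since matches to the single mean ended at 197 bp in wide peaks and all narrow peaks were shorter. It is therefore not a separate difference between the groups. In 0 of the 48 wide peaks, and likewise in 0 of the 151 narrow peaks, was the matched mean below what the background rate predicts for their width. This is thus not particular to wide peaks. Whether the caller could give a peak a mean below the background was not tested. Neither these counts nor the end at 197 bp is therefore read as a result about the peaks. The list does not say what these means stand for.

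The matches to the single mean lay in the shortest wide peaks, 180 to 197 bp, and those to its double in peaks of 191 to 384 bp. The strongest of the latter was a 384-bp peak of chromosome 12 (70712166 to 70712549, score 528.14), with a tail beyond 60 tags at a mean of 3.39. A 346-bp peak of chromosome 4 (93149359 to 93149704, score 515.59) followed with a tail beyond 59 tags. Repeated scores were common, and 83 of the 316 wide peaks shared their score with another wide peak. For 220 wide peaks the mean behind the score was recovered in one way or the other. The remaining 96 (30.4%) had a median score of 56.17 (51.82 to 62.92), and 35 of them scored below 50.

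To ask whether some chromosomes held more of the wide peaks, the counts of wide and narrow peaks were compared over the 14 autosomes. The split did not differ detectably between chromosomes (chi-square 11.97 with 13 degrees of freedom, p = 0.53). Wide peaks made up 17.1% (316 of 1844) of both groups together (exact 95% interval 15.4 to 18.9%). In two-sided Fisher's exact tests of each chromosome against the other 13, 0 of 14 chromosomes (0%) had an adjusted p under 0.05 after Benjamini-Hochberg adjustment, and 1 had an unadjusted p under 0.05. That was chromosome 12, with the highest share of 23.5% (32 of 136, exact 95% interval 16.7 to 31.6%, unadjusted exact p = 0.0445, adjusted p = 0.551). Chromosome 4 followed with 21.95% (36 of 164, 15.9 to 29.1%) and chromosome 19 with 21.3% (10 of 47, 10.7 to 35.7%). The lowest share was 10.99% on chromosome 16 (10 of 91, 5.40 to 19.3%). With 10 to 36 wide peaks on a chromosome, small departures could not have been seen.

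**Figure D3:**
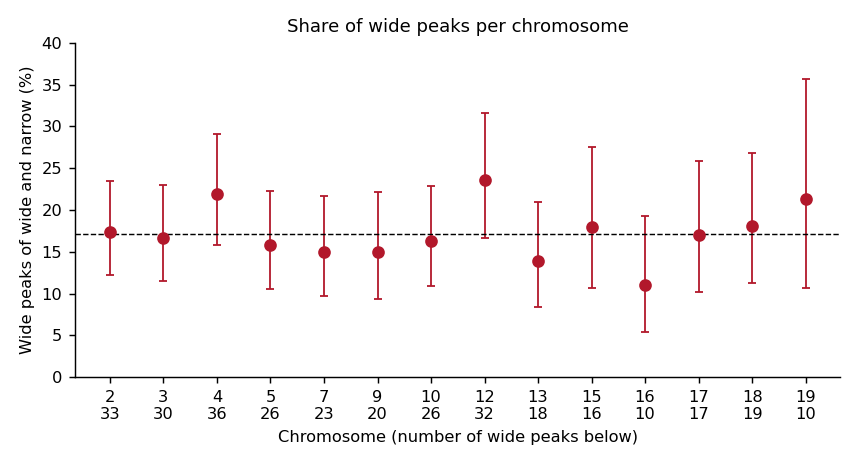
Share of wide peaks among wide and narrow peaks (vertical, percent) on each of 14 autosomes (horizontal, with the number of wide peaks under each name). Bars are exact 95% intervals and the dashed line is the share over all 14, 17.1%. Every interval includes that line, from 10.99% on chromosome 16 to 23.5% on chromosome 12.

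Strong wide peaks were likewise spread over the chromosomes. The median score ran from 63.84 on chromosome 13 to 95.14 on chromosome 16, and the intervals of these medians overlapped (45.48 to 318.02 and 61.14 to 239.41). Every one of the 14 chromosomes held wide peaks with a score of at least 100, between 2 on chromosome 19 and 13 on chromosome 4. The best wide peak of a chromosome scored from 237.79 on chromosome 3 to 1214.29 on chromosome 13. The share on the background rate was lowest on chromosome 5 (10 of 26 peaks, 38.5%) and highest on chromosomes 16 and 19 (7 of 10 peaks each, 70%). Wide peaks were far apart, with a median spacing between neighbouring wide peaks of 1.27 Mb on chromosome 16 to 5.53 Mb on chromosome 5.

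**Figure D4:**
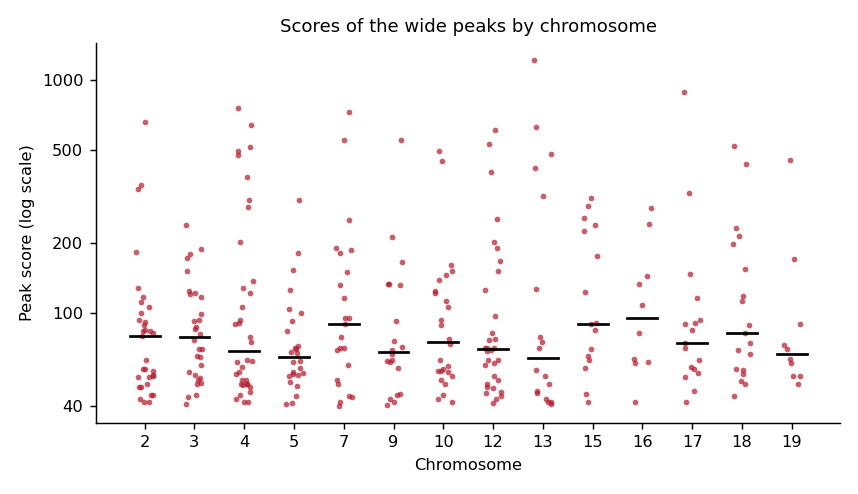
Score of each of the 316 wide peaks (vertical, log scale) by chromosome (horizontal), 1 point per peak with points spread sideways at random. Black lines are the medians, which run from 63.84 to 95.14, and every chromosome has peaks both below 50 and above 100.

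Next, the surroundings of the wide peaks were examined. The choice by width did not use them, but neighbours come from the same peak call as the widths. Where the caller ended one interval and began the next bears on both, so the test is not independent of the choice. The midpoint of another listed peak lay within 10 kb of 27 of the 316 wide peaks (8.54%, exact 95% interval 5.71 to 12.2%). The same was found for 76 of 1528 narrow peaks (4.97%, 3.94 to 6.19%). The difference of 3.57 percentage points (95% interval 0.698 to 7.30) passed the threshold of 0.05 (odds ratio 1.78, two-sided Fisher's exact p = 0.0153). Interval and test treat peaks as independent, although 10 of these 27 wide peaks were neighbours of each other in 5 pairs. The interval may therefore be too narrow and the p-value too small, as at the other distances below. The median distance to the nearest peak of any width was 216 kb (174 to 275 kb) for wide and 256 kb (235 to 279 kb) for narrow peaks, with overlapping intervals. Within 50 kb of another peak lay 67 wide peaks (21.2%, 16.8 to 26.1%) and 13% of narrow peaks (two-sided Fisher's exact p = 0.000281).

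Within 10 kb, the difference lay in very close neighbours. Within 1 kb of another peak were 17 wide peaks (5.38%, exact 95% interval 3.16 to 8.47%) and 29 narrow peaks (1.90%, 1.27 to 2.71%). When only neighbours between 1 and 10 kb away were counted, a choice made after these distances were seen, the shares were 3.16% and 3.08% (two-sided Fisher's exact p = 0.86). The difference also missed the threshold when wide peaks were set against all peaks under 180 bp (8.54% against 5.61%, Fisher's exact p = 0.0543), since peaks under 100 bp had close neighbours as often as wide ones (29 of 342, 8.48%).

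**Figure D5:**
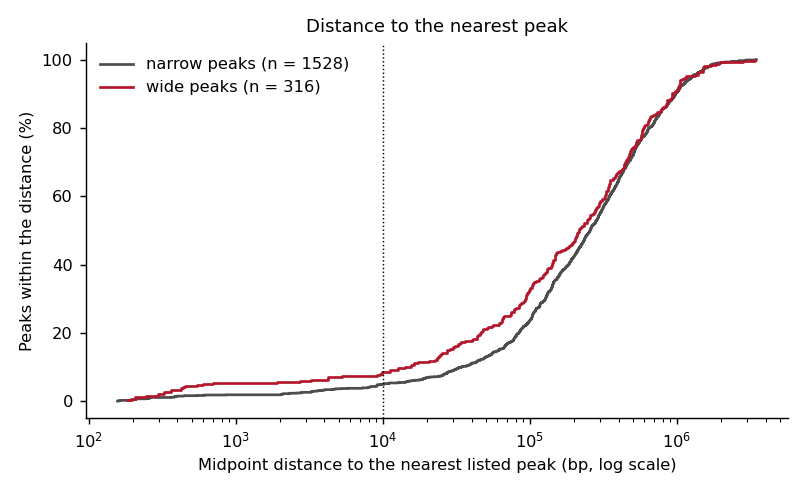
Share of peaks (vertical, percent) whose nearest listed peak lies within a given midpoint distance (horizontal, bp, log scale), for wide (red, n = 316) and narrow peaks (grey, n = 1528). At the dotted line of 10 kb the curves stand at 8.54% and 4.97%, and they meet at long distances.

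The close neighbours were often intervals that nearly touched. Of the 27 wide peaks with a neighbour within 10 kb, 12 had at most 100 bp between their edge and that of the next peak. The nearest peak was itself wide in 10 cases, narrow in 15 and under 100 bp in 2. The longest and second strongest wide peak, on chromosome 17, was separated by 1 bp from a narrow peak of 153 bp (79486796 to 79486948, score 101.17). On chromosome 16, a wide peak of 448 bp (87165431 to 87165878, score 280.53) had a 154-bp narrow peak at 150 bp from its edge (87165127 to 87165280, score 60.76).

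Wide peaks formed 5 pairs within 10 kb of each other. On chromosome 9 a 347-bp peak (61102062 to 61102408) and a 240-bp peak (61102411 to 61102650) were 2 bp apart, with scores of 211.39 and 165.47 and tails beyond 30 and 22 tags. On chromosome 12 the peak of 384 bp with a score of 528.14 was 6 bp from a peak of 251 bp (70712556 to 70712806, score 150.83, tail beyond 21 tags). In these pairs both peaks were strong. By contrast, on chromosome 2 a strong peak of 479 bp (160431183 to 160431661, score 355.12, tail beyond 48 tags) lay 75 bp from a weak one of 218 bp (160431737 to 160431954, score 48.29). The other pairs were weak on both sides and farther apart. They were the peaks of 779 and 1203 bp on chromosome 2 described above and a pair on chromosome 5. The latter had 9563 bp between a 254-bp peak (146322578 to 146322831) and a 187-bp peak (146332395 to 146332581), with scores of 62.46 and 54.43. All peaks of these weak pairs were off the background rate.

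Wide peaks with a neighbour within 10 kb had a median score of 74.6 and isolated ones a median of 70.68. A score of at least 100 was found for 12 of the 27 (44.4%) and for 90 of the 289 others (31.1%). The share with a neighbour was higher in each longer class. It was reached by 6 of 132 peaks under 200 bp (4.55%, exact 95% interval 1.69 to 9.63%), 9 of 118 from 200 to under 250 bp (7.63%, 3.55 to 13.99%) and 9 of 54 from 250 to under 500 bp (16.7%, 7.92 to 29.3%). Of the 12 peaks of 500 bp or more, 3 had one (25%, 5.49 to 57.2%). Neighbouring classes overlapped in these intervals.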

How the data were processed

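ChIP-Seq of Flag-USP21 in E14 mESCs gave 1 peak list. Per the labels, the authors used CASAVA 1.4 and Bowtie 0.12.7 with the mm9 build, and kept uniquely mapped reads. The deposited score per peak carries MACS14 identifiers, whereas the methods name a later MACS release in broad mode with an IgG control and mm10, so which run and control made the list was not settled. Other values in the deposited file are positions in bp. Read depth is not given in the sources used here.

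Midpoints gave distances. Medians carry 95% order-statistic intervals and shares exact Clopper-Pearson intervals. Positional features were compared with two-sided Fisher's exact tests, a chi-square test and a Newcombe interval, at a threshold of 0.05. The background rate was fitted with a smallest window of 104 bp, and scores within 0.015 of a Poisson tail were matched. The fit was tested on simulated data. Python 3.11.15 was used with matplotlib 3.10.9, pandas 2.3.3, scipy 1.17.1 and numpy 2.4.6. Named peaks are the 10 longest, the 10 with the highest score, wide peaks within 10 kb of each other and those at the width limit, and any others were chosen after their values were seen. The members, the score limits and the tests were chosen with earlier results of these data known. The planned sequence and gene comparisons were not run, because a genome of the list's build was not used here.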

Additional observations from a re-analysis of the deposited data

How the results depend on the processing

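With a smallest width of 200 bp and of 250 bp, the median score was 87.75 and 142.25 and the share with a score of at least 100 was 41.8% and 65.2%, as fewer and longer peaks were kept (184 and 66 peaks). The share at the background rate was 40.9% at 250 bp, 63.2% among wide peaks that scored 50 or more and 67.6% among those that scored 100 or more, where 71.8% of narrow peaks were on it. The difference from narrow peaks in the share within 10 kb of another peak missed the threshold with scores of 50 or more (6.72% against 3.86%, Fisher's exact p = 0.0808) or 100 or more (5.88% against 2.11%, p = 0.17), with fewer peaks compared. It also missed it against all peaks under 180 bp (8.54%, Fisher's exact p = 0.0543) or with neighbours over 1 kb away only (3.16%, p = 0.86). In the other 7 of 11 alternatives it passed the threshold in the same direction, among them a distance of 5 kb (6.96%). Of these 7, distances between edges gave the same shares as midpoints (8.54% against 4.97%), and so repeat the main result. With 1 peak per 10 kb cluster the difference has no value. The spread over chromosomes kept its side of the threshold in 6 of 6 alternatives (p from 0.0660 to 0.920), although the smallest predicted count was 1.57 at 250 bp. Distances between edges and neighbours over 1 kb away were chosen after seeing the data. Alternatives on sequence and gene positions were not run. The lack of a replicate and of tag counts limits all values to this list.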

Other observations

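On the same 14 autosomes the relation of score to width had 2 high ends. Peaks under 100 bp had a median score of 87.39 (95% confidence interval 85.55 to 97.00) and 130 of 342 of them scored at least 100 (38.0%, exact 95% interval 32.8 to 43.4%), a median above those of both narrow and wide peaks. In steps of 20 bp, the median score was 98.94 from 60 to under 80 bp, 45.28 from 140 to under 160 bp, the step with the most peaks (675 peaks), 62.48 from 180 to under 200 bp and 90.29 from 220 to under 240 bp. Peaks under 100 bp on the background rate had a median tail beyond 11 tags, and wide peaks on it one beyond 13 tags. Relative to the background the medians were 13.01 and 7.54 times. For peaks under 100 bp that background was the one predicted for the smallest window of the fit, which is longer than these peaks. For wide peaks it was predicted for their own width, so these ratios are not like measures. Per 100 bp of peak, the medians were 14.8 tags under 100 bp and 6.13 tags in wide peaks. These values share 1 peak call and were not tested.

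Among the 7 bins of 5 Mb with 4 or more wide peaks, 0 of 8 wide peaks of chromosome 12 (115 to 120 Mb) and 0 of 4 of chromosome 4 (145 to 150 Mb) were on the background rate. The numbers were 1 of 4 on chromosome 9 (25 to 30 Mb), 2 of 5 on chromosome 16 (85 to 90 Mb), 2 of 4 on chromosome 15 (60 to 65 Mb), and 4 of 5 and 4 of 4 in the remaining bins with 4 or more wide peaks, on chromosomes 4 (90 to 95 Mb) and 18.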
